A study of Mus musculus with 3 samples.

Results

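Dividing B-lineage cells of mouse bone marrow are the subject here. They were taken from the library of total bone marrow (TBM) as cells with at least 3 UMIs of Cd79a and Cd79b summed, at least 1 UMI of Mki67 and Top2a summed and at most 1 UMI of Ighd, Fcer2a and Fcmr summed. A UMI is 1 counted RNA molecule. Cd79a and Cd79b encode the signalling chains of the B cell receptor and its precursor, Mki67 and Top2a are transcribed in cycling cells, and Ighd, Fcer2a and Fcmr mark mature B cells. This rule held for 183 of 4290 TBM cells with at least 200 genes and at most 10% mitochondrial UMIs, which is 4.27% (exact 95% binomial interval 3.68% to 4.91%), and TBM is 1 of 3 libraries with 8824 such cells in all. The other libraries, named LK and LSK, came from marrow depleted with an antibody cocktail that included CD45R, the B220 antigen of B-lineage cells, so B-lineage cells were targeted for removal there. TBM came from marrow of femora, tibiae, hips and spines and was sequenced as droplet 3′ libraries, and the labels do not say whether it was depleted of any cell. The labels give no strain, age, sex, treatment or number of mice. TBM, LK and LSK were 1 library each, so no difference has a replicate check, no p-value is given, and intervals cover counting error only.

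B cells arise in the marrow through ordered steps. Pro-B cells join the V, D and J segments of the immunoglobulin heavy chain with the Rag1 and Rag2 recombinase, and Dntt adds untemplated bases at the joints. A successful heavy chain pairs with the surrogate light chain, made from Vpreb1 or Vpreb2 and Igll1, to form the pre-B cell receptor, and the cells, then called large pre-B cells, divide several times. They stop dividing, turn off the surrogate light chain, and as small pre-B cells recombine the light chain genes, of which Igkc and Iglc1 to Iglc3 are the constant regions.

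The rule read Mki67, Top2a, Cd79a, Cd79b and the 3 mature genes in the same cells and the same contrast as everything else, so differences between the dividing cells and other cells are descriptions. The other 1263 TBM cells with at least 3 Cd79 UMIs fell into 567 non-dividing precursors, with 0 UMIs of Mki67 and Top2a and at most 1 of the mature genes, and 696 cells with 2 or more UMIs of the mature genes. The dividing cells held 1488 to 35968 UMIs, with a median of 6419, against a median of 1874 in non-dividing precursors and 1933 in cells with mature genes. At this gap a cell without a UMI of a gene means less in the shallow groups, so levels are given as CPM, the summed UMIs of a gene scaled to one common total for each group, and shares of cells are also given after thinning every cell to 2000 UMIs. TBM had 22522054 UMIs and a median of 3409 per cell. TBM shared 26 barcodes with LK, 1 of them of a dividing cell, and 6 with LSK, none of them of a dividing cell.

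Not every cell that met the rule was a B-lineage cell by its transcripts. In 164 of the 183 at least 3 UMIs of 5 B-lineage genes were present, among them the transcription factors Ebf1 and Pax5, the pre-B gene Vpreb3 and the adaptor Blnk. The remaining 19 had fewer, yet held 21.6% of the group's UMIs, with a median of 20467 UMIs per cell. Among the marker lists of other cell types, granulocyte-monocyte progenitor genes led in 8 of them, neutrophil genes in 4, erythroid genes in 3, monocyte genes in 3 and dendritic cell genes in 1. A lead is a rank and does not settle what a cell is. Progenitor markers passed 1% of the UMIs in 8 of the 19 cells, neutrophil markers in 3 and erythroid markers in 3. Monocyte and dendritic cell markers passed 1% in none of them. Plasma cell markers passed 5% in 1 cell, which is counted under neutrophil genes and passed 5% there too. All 13 dividing cells at exactly 3 Cd79 UMIs lacked the B-lineage genes, and 3 of the 53 otherwise matching cells just outside the rule, at 2 Cd79 UMIs, held them. At the limit on mature genes, Ms4a1 (CD20) was seen in 20.6% of the 34 dividing cells with 1 mature UMI and in 76.9% of the 13 cells just outside with 2. Of the 164, 7 carried over 5% of their UMIs from neutrophil markers and 2 over 5% from erythroid markers. Leaving out all 28 of these, which held 28.6% of the UMIs, left 155 cells, called the B-lineage-only cells from here on. The same filter, with a further limit of 50 UMIs on Jchain, a gene of plasma cells, left 524 of the 567 non-dividing precursors. These filters were chosen after the data were seen, and values are given with and without them where they differ.

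The name dividing pro-B and large pre-B cells was met in part. Vpreb1 had 774 UMIs in the 183 dividing cells and was seen in 67 of them, Igll1 had 901 UMIs in 65 cells, and Vpreb2 had 67 UMIs in 26 cells, each of which also held Vpreb1. At least 1 of the 3 was present in 76 of 183 dividing cells, 41.5% (34.3% to 49.0%), and in 72 of the 155 B-lineage-only cells, 46.5% (38.4% to 54.6%). Dntt was present in 20, and all 20 also held surrogate light chain UMIs. In the other 83 B-lineage-only cells no UMI of Dntt or of the surrogate light chain was seen, while Ighm, the heavy chain constant region, which the filter did not use, was seen in all 83 with a median of 19 UMIs. Ighm stood at 2208 CPM in all dividing cells, against 131 CPM in 642 TBM cells with Mki67 or Top2a UMIs and no Cd79 UMI, and 91.8 CPM in 1071 neutrophils (cells with at least 100 UMIs of S100a8 and S100a9 and none of the Cd79 or dividing genes). An Ighm UMI was seen in 96.7%, 44.5% and 23.6% of these cells at median depths of 6419, 8867.5 and 2635 UMIs, and in 90.4%, 19.1% and 15.1% after thinning. They are called dividing B-lineage cells here, since the surrogate light chain was seen in 41.5% of them.

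Vpreb1 and Igll1 are neighbours on chromosome 16 (GRCm38, minus strand, 16868403 to 16870843 and 16860671 to 16863985), and Vpreb2 lies on the plus strand of the same chromosome at 17980428 to 17981273. Transcripts of Vpreb1 and Vpreb2 were identical at 97.4% of 759 aligned bases, so UMIs can be split between these paralogs in ways the counts do not show. The RefSeq windows from 250 bases before to 50 after the start (GRCm38.p6) are shown because the 3 genes define the cells with the pre-B cell receptor. Capitals mark the E box CANNTG, the motif of E proteins such as Tcf3, searched on both strands. It is present in 72.3% of the 32851 windows searched, which leave out a chromosome, so its presence here is no more than a description. The windows are chr16:16869206-16869505 for Vpreb1, chr16:16863936-16864235 for Igll1 and chr16:17980315-17980614 for Vpreb2.
Vpreb1: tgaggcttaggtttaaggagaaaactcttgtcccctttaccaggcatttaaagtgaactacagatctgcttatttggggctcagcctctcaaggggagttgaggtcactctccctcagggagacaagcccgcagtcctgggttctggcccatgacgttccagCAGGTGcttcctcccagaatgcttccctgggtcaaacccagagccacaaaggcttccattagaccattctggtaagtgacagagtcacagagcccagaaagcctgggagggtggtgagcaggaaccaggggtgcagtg
Igll1: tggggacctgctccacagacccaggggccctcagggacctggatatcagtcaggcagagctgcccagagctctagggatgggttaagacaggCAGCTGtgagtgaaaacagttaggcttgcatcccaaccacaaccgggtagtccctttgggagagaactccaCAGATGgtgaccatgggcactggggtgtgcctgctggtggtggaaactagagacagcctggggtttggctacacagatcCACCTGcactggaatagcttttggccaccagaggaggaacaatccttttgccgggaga
Vpreb2: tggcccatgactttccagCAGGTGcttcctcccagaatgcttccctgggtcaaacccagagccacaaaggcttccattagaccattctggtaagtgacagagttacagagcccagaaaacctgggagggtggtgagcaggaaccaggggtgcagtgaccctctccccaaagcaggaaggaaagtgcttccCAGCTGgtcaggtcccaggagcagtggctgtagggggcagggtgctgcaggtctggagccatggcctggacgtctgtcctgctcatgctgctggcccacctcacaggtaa
Vpreb1, Igll1 and Vpreb2 hold 1, 3 and 2 E boxes in these windows. The Vpreb1 and Vpreb2 windows both carry the E box CAGGTG.

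The surrogate light chain was unevenly spread among the dividing cells. Summed UMIs of Vpreb1, Igll1 and Vpreb2 ranged over 0 in 107 cells, 1 to 9 in 36, 10 to 29 in 11 and 30 or more in 29, with a highest value of 79. In the 20 Dntt-positive cells the sum lay between 16 and 79, with a median of 48.5. In the other 56 positive cells it lay between 1 and 65, with a median of 5. Vpreb3, which is not part of the surrogate light chain pair and is made through later stages, was present in 164 of 183 dividing cells with a median of 17 UMIs.

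Summed over cells, Igll1 and Vpreb1 had their highest levels in the dividing cells. Igll1 stood at 548 CPM in dividing cells, 274 CPM in non-dividing precursors, 41.6 CPM in cells with mature genes and 3.39 CPM in neutrophils, which should lack it. Vpreb1 stood at 471 CPM, against 326, 34.7 and 1.98 CPM in the same groups. Dntt, at 233 CPM in dividing cells, was at 155 CPM in non-dividing precursors and 18.8 CPM in cells with mature genes. Vpreb3 went the other way, with 1934 CPM in dividing cells and 3626 CPM in non-dividing precursors. After thinning, 52 of 178 dividing cells held an Igll1 UMI, 29.2%, against 24 of 225 non-dividing precursors, 10.7%, and 8 of 667 neutrophils, 1.20%. Before thinning these shares were 35.5%, 7.05% and 1.12%. The summed levels depend on which cells are counted. Against non-dividing precursors Igll1 was 1.0 higher on the log2 scale (0.82 to 1.17) and Vpreb1 0.53 higher (0.36 to 0.70), but with only cells of at least 2000 UMIs, thinned, Igll1 stood at 0.07 and Vpreb1 at -0.11, on the other side of 0. That setting leaves out 342 of the 567 non-dividing precursors and 5 dividing cells.

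**Figure D1:**
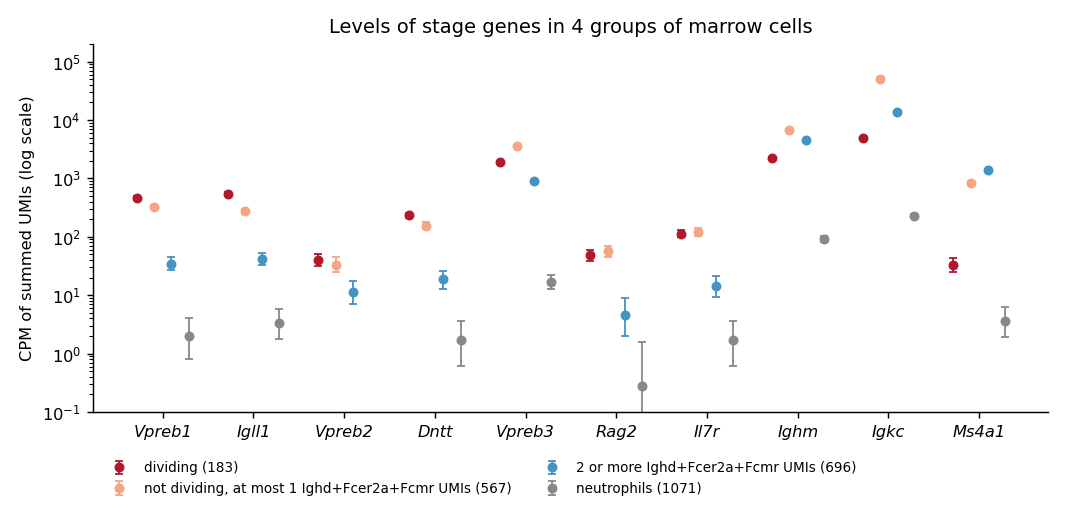
Level of 10 B-cell stage genes, as CPM of summed UMIs on a log scale, in the 183 dividing cells, 567 non-dividing precursors, 696 cells with mature genes and 1071 neutrophils of TBM; bars are exact 95% Poisson intervals and a point at 0 is not drawn. Vpreb1 and Igll1 are highest in the dividing cells (471 and 548 CPM), and Igkc and Ms4a1 are lowest there among the 3 groups of Cd79 cells.

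Division was more frequent among precursors that carried Dntt or surrogate light chain UMIs. Of the 125 precursors with either, 76 met the rule for division, 60.8% (51.7% to 69.4%), against 107 of 625 without, 17.1% (14.2% to 20.3%). After thinning to 2000 UMIs the shares were 50.6% of 79 precursors (39.1% to 62.1%) and 26.9% of 294 (21.9% to 32.3%). The intervals of these shares did not overlap in either count, but the gap was narrower at equal depth. Thinning dropped cells under 2000 UMIs, among them 342 of the 567 non-dividing precursors and 5 of the 183 dividing cells. The part of this loss in the shares was not tested. By class at equal depth, 14 of 34 Dntt-positive precursors and 26 of 45 with the surrogate light chain and no Dntt were dividing, 41.2% (24.6% to 59.3%) and 57.8% (42.2% to 72.3%), which overlap. Of cells with mature genes, 47 of 696 had a Mki67 or Top2a UMI, 6.75%, and 5.76% after thinning.

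Against all 1263 other Cd79 cells, 9350 genes had at least 20 UMIs over both groups, of which 1116 (11.9%) were at least 2-fold higher in the dividing cells and 1278 (13.7%) at least 2-fold lower. Igll1 was 1.92 higher on the log2 scale (1.76 to 2.08) and Vpreb1 1.52 higher (1.36 to 1.69), and 1.15 and 0.97 higher in thinned cells. Of 26 mature B genes 25 were at least 2-fold lower in the dividing cells, and none was higher. Cd74, the invariant chain of MHC class II, stood at 579 CPM in dividing cells and 15413 CPM in the others. The rule used mature genes to choose the groups, and nothing is read from this side. The comparison with non-dividing precursors, which have the same limit on those genes, is described in more depth.

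Of 8335 genes measured against the 567 non-dividing precursors, 1087 (13%) were at least 2-fold higher in the dividing cells and 1025 (12.3%) at least 2-fold lower. With the B-lineage-only cells on both sides, 939 of 7614 (12.3%) were higher and 1178 (15.5%) lower. The median over all genes was -0.04 on the log2 scale, and -0.13 in the B-lineage-only cells.

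Mitosis genes stood furthest apart. Of 57 genes of mitosis and G2/M, which do not include Mki67 and Top2a, 55 were at least 2-fold higher in the dividing cells and none was lower, with a median log2 ratio of 4.21. Nusap1, a spindle protein, had 654 UMIs in dividing cells and 8 in non-dividing precursors, or 398 and 5.71 CPM, a log2 ratio of 6.12 (5.13 to 7.34). Cenpf, a kinetochore protein, had 309 and 4 UMIs (log2 ratio 6.04, 4.67 to 7.92). The mitotic kinase Cdk1 had 494 and 7 UMIs (5.91, 4.86 to 7.23), and was seen in 68.9% of dividing cells and 1.23% of non-dividing precursors. Outside the list, Esco2, which locks sister chromatids together during replication, had 208 UMIs in dividing cells and 0 in the others, so that its log2 ratio was at least 5.88, taken against a floor of 3 UMIs over the group. Cyclin B2 (Ccnb2) stood at 402 CPM against 38.5 CPM (3.38, 2.98 to 3.81).

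Promoters of this list often hold the same short motifs, and those of Ccnb2 and Cdk1 are shown as examples of genes that were higher together. Capitals mark the cell cycle homology region (CHR, TTTGAA or TTCGAA) and the CCAAT box (CCAAT), on either strand. Of the 57 genes, 47 had a window among those searched. A CHR was in 35 of these, 74.5%, against 21.7% of 27025 genes with a searched window. The CCAAT box was in 34 of the 47, 72.3%, against 41.1% of all. The windows are chr9:70421505-70421804 for Ccnb2 and chr10:69352863-69353162 for Cdk1, both on the minus strand of GRCm38.p6.
Ccnb2: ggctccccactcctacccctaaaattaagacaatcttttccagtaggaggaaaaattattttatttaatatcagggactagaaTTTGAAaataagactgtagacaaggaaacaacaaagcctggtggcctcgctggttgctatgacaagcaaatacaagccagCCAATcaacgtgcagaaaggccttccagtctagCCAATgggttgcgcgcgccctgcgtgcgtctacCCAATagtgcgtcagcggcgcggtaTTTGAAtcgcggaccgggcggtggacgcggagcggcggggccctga
Cdk1: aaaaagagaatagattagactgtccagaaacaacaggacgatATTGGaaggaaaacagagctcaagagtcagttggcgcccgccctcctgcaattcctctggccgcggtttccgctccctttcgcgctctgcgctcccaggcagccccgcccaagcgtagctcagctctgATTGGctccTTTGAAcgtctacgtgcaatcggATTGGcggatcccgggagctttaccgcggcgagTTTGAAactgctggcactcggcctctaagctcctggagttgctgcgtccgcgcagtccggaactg
Each of these 2 windows holds 2 CHR and 3 CCAAT matches. A match is a string of letters, and binding at it was not measured.

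Replication genes followed. Of 53 genes of DNA replication and S phase, 51 were at least 2-fold higher in the dividing cells and none was lower, with a median log2 ratio of 2.60. Rrm2, the ribonucleotide reductase subunit, had 1302 UMIs in dividing cells and 53 in non-dividing precursors (log2 ratio 4.39, 3.99 to 4.81). Thymidine kinase Tk1 had 224 and 14 UMIs (3.77, 2.99 to 4.66), and Cdc45 of the replicative helicase 109 and 6 (3.95, 2.78 to 5.43). Among 22 measured histone and chromatin assembly genes 15 were higher and 1 lower, with Hist1h2ap at 2247 CPM against 97.8 CPM. For nucleotide and one-carbon synthesis 13 of 24 were higher, among them Ctps, Mthfd2 and Paics (2.11, 1.96 and 1.89).

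The G1 regulators were not uniform. Of 18 measured cyclins, kinases and inhibitors 12 were at least 2-fold higher in the dividing cells. Cyclins E1 and E2 (Ccne1 and Ccne2), which start replication, were 4.11 and 4.23 higher on the log2 scale. Cyclin D3 (Ccnd3), the D-type cyclin that large pre-B cells need in mice, stood at 827 CPM in dividing cells and 368 CPM in non-dividing precursors (1.17, 1.02 to 1.32). The inhibitor Cdkn2c stood at 230 and 32.8 CPM (2.81, 2.36 to 3.28), and blocks the kinases that partner D-type cyclins. Cdkn1a, an inhibitor induced by p53, had 53 and 8 UMIs (2.50, 1.41 to 3.78), while 7 of 16 genes of the p53 list were at least 2-fold lower. Of these Btg1, an antiproliferative gene, stood at 383 CPM in dividing cells and 2184 CPM in non-dividing precursors, and Btg2 at 127 and 478 CPM. In the Myc network, the Max partner Mxd3 had 142 UMIs in dividing cells and 2 in non-dividing precursors (log2 ratio 5.92, 4.04 to 8.98), and Mxd4 was lower, at 35.3 and 109 CPM. Myc itself had 43 and 23 UMIs, and its interval included no difference (0.67, -0.09 to 1.47). In the B-lineage-only cells the interval lay above 0 (1.40, 0.26 to 2.68), but only 5.16% of those dividing cells held a Myc UMI. The interval does not cover such clumping by cell. After thinning, Myc was seen in 1.33% of B-lineage-only dividing cells and 1.04% of non-dividing ones.

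Fewer growth genes than cycle genes passed. Of 25 measured genes of the nucleolus and ribosome assembly 6 were at least 2-fold higher, and of 17 glycolysis genes 5, among them Gapdh (1.54). Of 56 nuclear genes of the respiratory chain 2 passed, with a median log2 ratio of 0.49.

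Genes of later B-cell stages were lower. Of 25 measured mature B genes 24 were at least 2-fold lower in the dividing cells, with a median log2 ratio of -2.38, and of 16 light chain and immature B genes 12 were, with a median of -2.25. Ms4a1, which encodes CD20, had 55 UMIs in dividing cells and 1176 in non-dividing precursors, a log2 ratio of -4.65 (-5.07 to -4.26). Bank1, a B cell receptor adaptor, had 8 and 160 UMIs (-4.55, -5.79 to -3.54), and S1pr1, the receptor by which lymphocytes leave the marrow, 9 and 128 (-4.06, -5.22 to -3.09). Lambda light chain genes Iglc1, Iglc2 and Iglc3 had log2 ratios of -3.99, -3.55 and -3.92. Igkc stood at 4990 CPM in dividing cells and 51231 CPM in non-dividing precursors, but 74.0% of its UMIs in the dividing cells were in the 1 cell with over 50 Jchain UMIs, and 84.5% of those in non-dividing precursors were in 8 such cells. In the B-lineage-only cells Igkc stood at 1620 and 9832 CPM (-2.60, -2.67 to -2.53).

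Genes of pre-B cell receptor signalling and B-lineage transcription factors were more often lower than higher. Of 19 measured signalling genes 9 were at least 2-fold lower in the dividing cells and 1 higher. Of 25 transcription factors 7 were lower and none higher, among them Ikzf3, Klf2, Spib and Foxo1 (-2.61, -2.38, -2.03 and -1.70). Ebf1 had a log2 ratio of -1.37 and Pax5 of -0.97. The recombinase pair parted: Rag1 stood at 12.8 CPM in dividing cells and 72.1 CPM in non-dividing precursors (-2.50, -3.25 to -1.81), whereas Rag2 stood at 48.6 and 56.4 CPM (-0.21, -0.68 to 0.25). In the same list, the chromatin proteins Hmgb1 and Hmgb2, which also assist the recombinase, were 2.04 and 3.04 higher. Il7r, the receptor chain for interleukin 7 that sustains these cells in mice, lay within counting error, at 113 and 122 CPM (-0.11, -0.42 to 0.20). The shared receptor chain Il2rg had a log2 ratio of -2.35, and Socs2, an inhibitor of this pathway, was 1.35 higher (0.68 to 2.07).

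Among the other lists, 7 of 19 homing genes, 4 of 14 survival genes and 4 of 18 early B progenitor genes were at least 2-fold lower, and 1 early gene was higher.

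Markers of other cells moved with the group as ruled. All 8 granulocyte-monocyte progenitor markers and all 11 measured erythroid markers were at least 2-fold higher in the dividing cells, with Mpo, the granule peroxidase of myeloid progenitors, at 1271 CPM against 45.7 CPM. In the B-lineage-only cells 0 of 6 progenitor markers and 1 of 8 erythroid markers were, and Mpo stood at 42.6 and 36.3 CPM. Neutrophil markers summed to 34244 CPM in dividing cells and 25261 CPM in non-dividing precursors, and to 4180 and 6160 CPM in the B-lineage-only cells. The cycle lists held there, with 55 of 57 mitosis and 50 of 52 replication genes at least 2-fold higher.

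**Figure D2:**
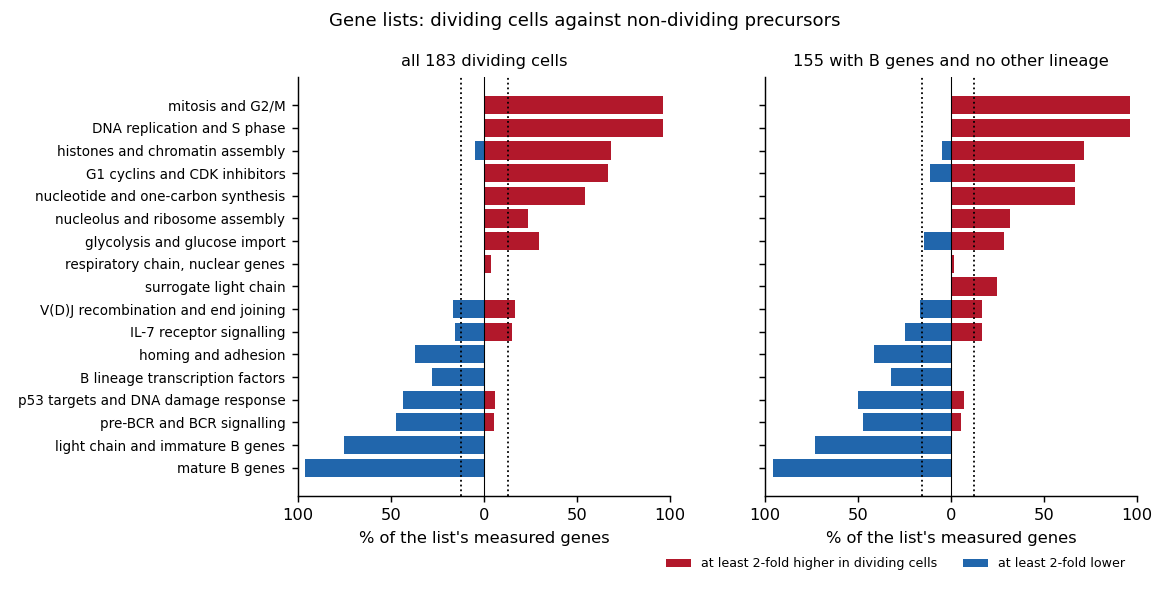
Share of each list's measured genes that were at least 2-fold higher (right, red) or at least 2-fold lower (left, blue) in dividing cells than in non-dividing precursors, for all 183 dividing cells and for the 155 B-lineage-only cells; dotted lines mark the same shares over all genes (13% and 12.3%, and 12.3% and 15.5%). Mitosis and replication genes lie almost wholly on the right and mature B genes almost wholly on the left in both panels.

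Cycle transcripts were then set against the Mki67 and Top2a UMIs that chose the cells. In B-lineage-only cells the median of mitosis list UMIs was 10.5 per 10000 at 0 UMIs of Mki67 and Top2a (524 cells), 17.4 at 1 UMI (27 cells), 118 at 2 to 4 (25 cells), 178 at 5 to 9 (42 cells) and 248 at 10 or more (61 cells). The replication list stood at 11.5, 14.0, 100.3, 111 and 86.3 in the same order. Cells just inside the rule, at 1 UMI, thus lay close to those just outside it. With a mark of 50 per 10000 in either list, set after the data were seen, 127 of 128 cells with 2 or more UMIs reached it, 11 of 27 at 1 UMI, and 15 of 524 non-dividing precursors. Igkc was also lower with more Mki67 and Top2a UMIs, at 9832, 4230, 2367, 1420 and 1112 CPM in the same order, and Ms4a1 at 1044, 208, 108, 41.4 and 1.67 CPM. Il7r showed no such order in CPM, at 154, 142, 146, 133 and 165. The share of cells with an Il7r UMI was 24.2%, 44.4%, 48.0%, 61.9% and 82.0%. Median depth differed along this order as well, at 1846.5, 2834, 4942, 5741 and 7884 UMIs. After thinning, an Il7r UMI was seen in 32.7% of B-lineage-only dividing cells and 29.2% of non-dividing ones, against 64.5% and 24.2% before. The shares by number of Mki67 and Top2a UMIs were not thinned, and the part of depth in them was not tested.

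**Figure D3:**
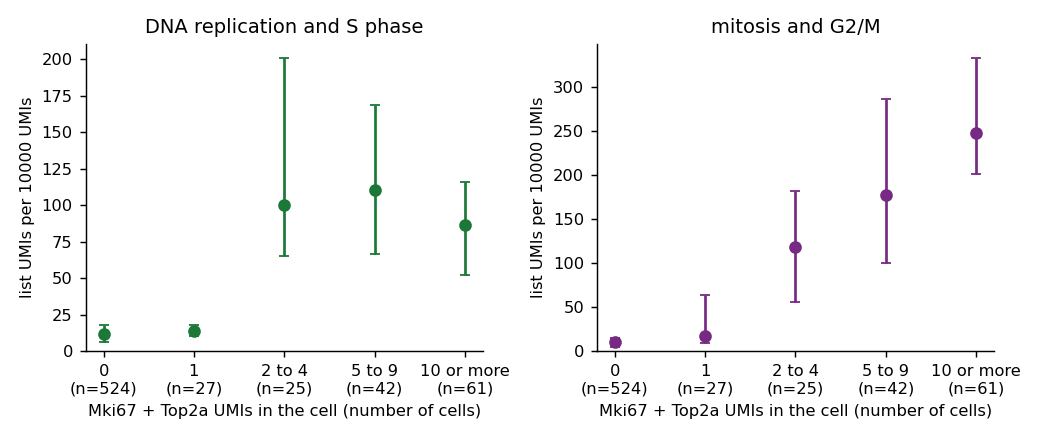
Median (point) and quartiles (bar) of replication and of mitosis list UMIs per 10000 UMIs, in B-lineage-only precursors grouped by their UMIs of Mki67 and Top2a, which are in neither list. Cells with 1 UMI (medians 14.0 and 17.4) lie near those with 0, and cells with 2 or more lie well above both.

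Single cells differed in their levels of the 2 lists. The cells were chosen by Mki67 and Top2a UMIs, and mitosis list UMIs rose with these, so nothing is read from which list is higher. The lists hold different genes, and their sums do not give the phase of a cell. Of the 155 B-lineage-only cells, 103 reached 50 per 10000 in both lists, 29 in the mitosis list alone, 6 in the replication list alone and 17 in neither. Mitosis UMIs outnumbered replication UMIs in 105 cells and the reverse held in 46. The replication list ranged over 0 to 245 per 10000 with a median of 83.1, and the mitosis list over 0 to 479 with a median of 181. The plot of both lists by cell runs from a few cells high in replication genes alone through cells high in both to cells high in mitosis genes with few replication UMIs. The Pearson correlation of the 2 lists over the 155 cells was -0.12.

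**Figure D4:**
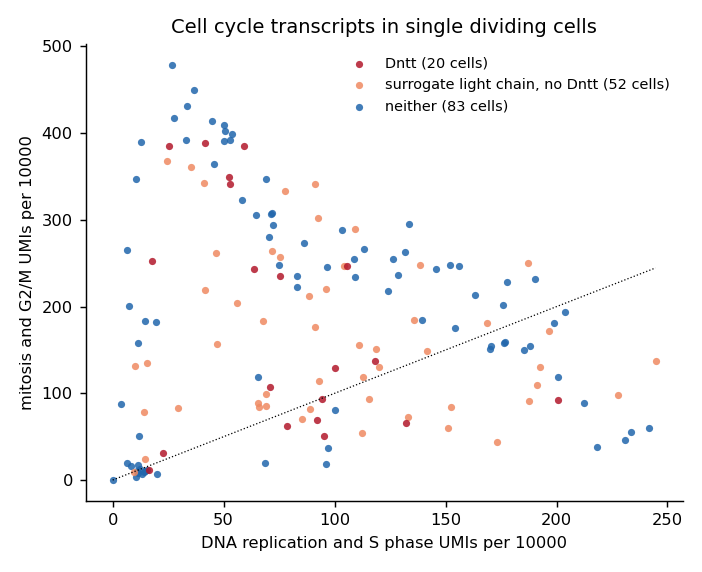
Replication list UMIs (x axis) against mitosis list UMIs (y axis), both per 10000 UMIs, in each of the 155 B-lineage-only dividing cells, coloured by whether the cell held Dntt UMIs, surrogate light chain UMIs without Dntt, or neither; the dotted line marks equal values. All 3 classes have cells on both sides of the line, with more replication UMIs in 7 of 20, 14 of 52 and 25 of 83 cells. The 17 cells with under 50 in both lists sit near the origin, and 13 of them are in the class with neither.

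The 155 B-lineage-only cells fell into 3 classes: 20 with Dntt, 52 with the surrogate light chain and no Dntt, and 83 with neither. Median depth was 9330, 8254 and 5049 UMIs, and the part of depth in who falls into the last class was not tested. Over all dividing cells, not the B-lineage-only ones, the share with either was 41.5% of 183, and 34.3% of 178 after thinning to one depth. The classes were cut by these genes, and only other genes are described. Members of the early B progenitor list differed in where they stood highest, and those described next were chosen after their values were seen. Erg, a transcription factor of early progenitors, stood at 114 CPM in the Dntt class, 1.91 CPM in the surrogate light chain class and 7.13 CPM in the class with neither. Arpp21, an early B gene, stood at 127, 3.81 and 0 CPM, and Egfl7, an early progenitor gene, at 158, 24.8 and 4.75 CPM. Outside the list, the transcription factor Lef1 stood at 364, 118 and 42.8 CPM. The intervals of the first and last class did not overlap for any of these 4. Of the same list, Ly6d stood at 110, 227 and 717 CPM and was highest in the class with neither. The list summed to 3485, 1757 and 3211 CPM, of which Dntt, which chose the first class, made up 1683 CPM there.

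Other genes peaked in the surrogate light chain class. Nrgn, a calmodulin-binding protein, stood at 4.38 CPM in the Dntt class, 307 CPM in the surrogate light chain class and 49.9 CPM in the class with neither, and was seen in 5%, 55.8% and 13.3% of the cells. The surface protein Cd24a stood at 956, 3737 and 2729 CPM. Cyclin D2 (Ccnd2) stood at 48.2, 107 and 33.3 CPM, and its interval in the Dntt class overlapped both others. Myc had 4, 18 and 4 UMIs, the 18 in 7.69% of the class, too few to order.

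Igkc and most of the later genes named here were highest in the class with neither, and they were in part chosen after their values were seen. Ikzf3 (0, 26.7 and 7.13 CPM in the same order of classes) and Cd22 (8.77, 34.3 and 11.9 CPM) were highest in the surrogate light chain class. Their intervals there overlapped those of the class with neither. Igkc stood at 140 CPM in the Dntt class, 1113 CPM in the surrogate light chain class and 3055 CPM in the class with neither, against 230 CPM in neutrophils, so that the Dntt class lay below that background. The same order held for Il7r (43.8, 147 and 216 CPM), Ighm (1412, 2807 and 3912 CPM), Spib (39.5, 215 and 356 CPM), the survival gene Bcl2l1 (39.5, 62.9 and 164 CPM) and Irf4, which promotes light chain recombination in mice (0, 27 and 40 UMIs). For Il7r and Irf4 the intervals of the last 2 classes overlapped, and for Bcl2l1 those of the first 2. Cd74 stood at 48.2, 248 and 1568 CPM, but was seen in 40%, 67.3% and 62.7% of the cells. Ms4a1 was seen in 0%, 9.62% and 9.64%. Of the 83 cells with neither, 13 stayed under 50 per 10000 in both cycle lists, against 4 of the other 72. The 27 B-lineage-only cells with 1 Mki67 or Top2a UMI had Cd74 at 3862 CPM. The part of such cells in the levels by class was not tested. Rag2 had its lowest value in the middle class (65.8, 34.3 and 107 CPM), with Rag1 at 39.5, 3.81 and 16.6 CPM from 9, 2 and 7 UMIs.

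**Figure D5:**
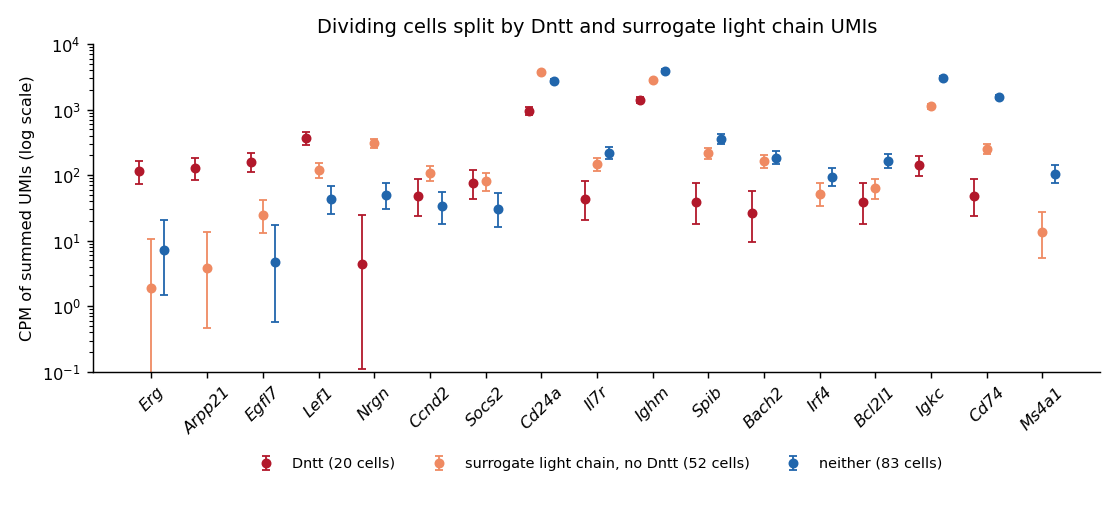
Level of 17 genes, as CPM of summed UMIs on a log scale, in the 20 dividing cells with Dntt, the 52 with surrogate light chain UMIs and no Dntt and the 83 with neither, all of them B-lineage-only; bars are exact 95% Poisson intervals and a level of 0 is not drawn. Erg, Arpp21, Egfl7 and Lef1 are highest in the Dntt class, Nrgn and Cd24a in the middle class, and Igkc, Cd74 and Ms4a1 in the class with neither.

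Taking the 72 cells with surrogate light chain UMIs against the 83 without, 5654 genes were measured, 309 (5.47%) were at least 2-fold higher with it and 375 (6.63%) at least 2-fold lower. Growth genes were on the higher side. Of 24 measured nucleolus and ribosome assembly genes 8 were higher and none lower, of 24 nucleotide synthesis genes 7 and none, and of 12 glycolysis genes 4 and none. Impdh1, an enzyme of guanine nucleotide synthesis, had 114 UMIs with the surrogate light chain and 7 without (log2 ratio 3.19, 2.10 to 4.53). Cdk6, a G1 kinase, had 93 and 10 (2.38, 1.44 to 3.49), and lactate dehydrogenase Ldha stood at 701 and 252 CPM (1.48, 1.17 to 1.79). Bfsp2, Lef1, Nrgn and Mif were higher by 2.31, 2.17, 2.11 and 2.09. On the lower side stood Cd74 (-3.07), Ly6d (-1.91), Igkc (-1.90) and Klf2 (-1.83), and 9 of 13 light chain and immature B genes. Of 51 replication genes none passed in either direction, and of 57 mitosis genes 4 were lower with the surrogate light chain. The replication list summed to 9032 CPM with the surrogate light chain and 9803 CPM without, and the mitosis list to 16274 and 21857 CPM. With all of the dividing cells the counts were 313 (4.76%) and 446 (6.78%) of 6580 genes, and the lower side was led by Jchain, Elane and Igha, genes of plasma cells and myeloid progenitors.

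Against the 642 other dividing cells of TBM, which held Mki67 or Top2a UMIs and no Cd79 UMI, 2892 of 9657 genes (29.9%) were at least 2-fold higher in the dividing B-lineage cells and 972 (10.1%) at least 2-fold lower. With the B-lineage-only cells these were 3486 (36.7%) and 1189 (12.5%) of 9507 genes. The other dividing cells spent 177540 CPM on erythroid markers and 166183 CPM on neutrophil markers, and the median log2 ratio of all genes was 0.63. With size factors, which lower all ratios by 0.72, the split turned round to 790 higher (8.18%) and 1824 lower (18.9%). The ratios and counts of genes below are without size factors, and are to be read against the median of 0.63. Ebf1, the factor that starts the B-cell programme, had 2278 UMIs in dividing B-lineage cells and 29 in other dividing cells, a log2 ratio of 8.26 (7.74 to 8.84). Igll1 (8.08), Vpreb1 (7.75), Vpreb3 (7.32) and the coactivator Pou2af1 (7.19) were also among the 12 genes with the largest ratios. The cycle itself set these cells less apart: the median log2 ratio was 0.62 for 53 replication genes and 0.54 for 57 mitosis genes, both near the median of all genes. Single genes varied, with Cdk1 at 300.4 and 302 CPM, Ccnb1 at 267 and 174 CPM and Pcna at 534 and 366 CPM. Of 26 nucleolus and ribosome assembly genes 20 were at least 2-fold higher (median 1.20), and of 26 nucleotide synthesis genes 18 (median 1.07). With thinned cells the list of mitosis genes had a median of 32 UMIs of 2000 in the dividing B-lineage cells and 19 in the other dividing cells.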

How the data were processed

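Droplet 3′ libraries of total marrow (TBM), LK and LSK cells were deposited as UMI count matrices, 1 per library. Per the submitters' processing notes, the authors made these counts with Cell Ranger 4.0.0 on mm10; they are unnormalized. Labels state 3984 TBM cells, against 4317 barcodes in the matrix, of which 4290 had at least 200 genes and at most 10% mitochondrial UMIs.

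UMIs were summed per group with Python 3.11.15, scipy 1.17.1 and scanpy 1.11.5, and scaled to CPM. Ratios are of CPM, with exact conditional binomial intervals. Genes with at least 20 UMIs over both groups count as measured, and at least 2-fold as higher or lower. For calls and rankings, a count under 3 UMIs over a group was set to a floor of 3. Ratios printed with an interval use the counts themselves. Doublets were not removed; Scrublet marked 73 of 4290 TBM cells and 8 of the 183 dividing cells, and leaving them out was an alternative. Calls against non-dividing precursors were also run on simulated Poisson counts with seeded changes. Such counts follow the model of the intervals, so they cannot show the effect of UMIs clumped in single cells.

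Named genes are the 12 with the largest ratios in each direction among genes of at least 100 UMIs, and leading genes of lists; others were named after their values were seen. Members and lists were chosen with earlier results of these data known.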

Additional observations from a re-analysis of the deposited data

Results flagged for a closer look

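The same rule was applied to the libraries that the comparisons do not use. In LK 84 of 3464 cells passed, 2.42% (exact 95% binomial interval 1.94% to 2.99%). These 84 cells had 1 UMI of Cd79a and 285 of Cd79b, none had 3 UMIs of the 5 B-lineage genes, and Mpo stood at 10020 CPM. In LSK 12 of 1070 cells passed, 1.12% (0.58% to 1.95%), with 58 UMIs of Cd79a and 56 of Cd79b. Of these 12, 3 held the B-lineage genes, and all 3 also held Dntt and surrogate light chain UMIs.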

How the results depend on the processing

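The share of dividing cells in TBM was 3.50% with at least 2 UMIs of Mki67 and Top2a, 3.15% without cells carrying transcripts of other lineages and 3.61% for B-lineage-only cells. With genes of at least 100 UMIs, 557 were higher and 556 lower against other Cd79 cells, 473 and 352 against non-dividing precursors, and 1447 and 575 against other dividing cells. With no minimum, 1547 were lower than in non-dividing precursors and 7085 higher than in other dividing cells. In thinned cells 585 were higher and 559 lower against non-dividing precursors, and 646 lower against other dividing cells, where size factors gave 790 higher and 1824 lower. The share of dividing cells with Dntt or the surrogate light chain was 34.3% after thinning and 30.1% with at least 2 Dntt or 3 surrogate light chain UMIs. Mpo turned to a log2 ratio of -0.33 against non-dividing precursors without cells carrying transcripts of other lineages. Genes that were not called also changed sign in thinned cells: Vpreb1 (-0.11), Myc (-0.66) and Rag2 (0.29). The cause was not tested for any of these.

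No paired analysis was possible because each group is 1 library or part of 1. A split by sex-linked transcripts was not run, since it needed 50 dividing cells with Xist UMIs and 50 with Y-linked UMIs, and these were seen in 0 and 93 of the 183. Genes with few UMIs are limited by depth, mostly in non-dividing precursors.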
